A study of Homo sapiens with 8 samples.

Results

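Genes of mitosis and the G2/M phase are described here in human multiple myeloma cells that overexpressed CTBP2, a transcriptional corepressor. The set holds the 40 listed genes whose symbol was found in the table of FPKM values (a fragment count scaled to gene length and to sequencing depth). All 40 reached 1 FPKM or more in at least 2 libraries and were kept, out of 12583 genes that passed this filter and 25906 in the table. MM.1S and NCI-H929 are established human myeloma cell lines. Each was transduced by lentivirus with an empty vector (EV) or with a CTBP2 vector for 72 hours, and each of the 4 groups has 2 libraries described as biological duplicates, 8 RNA-seq libraries in all. The study's title names CTBP2 as a tumor suppressor acting on the MYC-IRF4 axis, and its design asks how CTBP2 changes the transcriptome of these cells. Both groups of each line carry a lentiviral vector, untransduced cells are not part of the comparison, and p-values measure the spread between these libraries only.

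Cells enter mitosis when cyclin B binds and activates CDK1. The chromosomes are then attached to spindle microtubules through kinetochores, the spindle checkpoint holds the anaphase-promoting complex back until attachment is complete, and the complex then marks securin and cyclins for destruction so that chromatids part and the cell divides. Most genes of this machinery are transcribed together late in the cycle. Repressor and activator complexes that contain LIN proteins (DREAM, and MYBL2 or FOXM1 with MuvB) bind their promoters at an element called the cell cycle genes homology region (CHR), often with CCAAT boxes, which bind NF-Y, further upstream. Proliferating myeloma cells express these genes, and their summed transcripts are in common use as a measure of proliferation.

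The CHR is written here as TTTGAA or TTCGAA and was searched with CCAAT on both strands of promoter windows from 250 bases before to 50 bases after each gene's start (RefSeq, GRCh38.p14). Windows were matched for 34 of the 40 genes, 43 windows in all. AURKA, BIRC5, FOXM1, TPX2, TTK and UBE2C had no entry. A CHR match was present in 65.1% of the 43 windows and in 16.4% of all 35116 windows of the same length. It lay within 50 bases of the start in 53.5% of the genes' windows and in 5.01% of all windows. TTTGAA alone was present in 62.8% against 15.2%. CCAAT was present in 72.1% against 34.6%. Over all windows of a gene, 21 genes had both motifs, which for PLK4 lay in different windows. Genes with both motifs were not counted among all genes. GCGGGAA, an E2F-type motif, was present in 9.3% against 6.55%, and CACGTG, the E-box that MYC and other factors bind, in 14.0% against 7.26%. These matches are descriptions of the letters and were not tested. Parts of 6 promoters are shown because these genes, from the kinetochore, checkpoint, cyclin, kinase and motor groups, carry the CHR close to the start. Each run has 180 bases, from 150 before to 30 after the start, on the gene's strand, and capitals mark the CHR and the CCAAT box in either orientation.
NUF2: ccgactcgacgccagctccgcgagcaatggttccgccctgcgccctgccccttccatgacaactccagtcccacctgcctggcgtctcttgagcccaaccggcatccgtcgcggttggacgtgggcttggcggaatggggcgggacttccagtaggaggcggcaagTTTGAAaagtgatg
MAD2L1: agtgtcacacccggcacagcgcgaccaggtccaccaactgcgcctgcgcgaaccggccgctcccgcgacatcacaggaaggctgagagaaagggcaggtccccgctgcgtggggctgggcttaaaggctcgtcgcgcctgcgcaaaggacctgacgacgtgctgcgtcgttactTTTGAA
CENPA: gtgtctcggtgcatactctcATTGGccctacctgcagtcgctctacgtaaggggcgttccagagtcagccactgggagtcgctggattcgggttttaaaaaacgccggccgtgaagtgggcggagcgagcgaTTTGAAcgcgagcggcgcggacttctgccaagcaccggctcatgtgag
CCNB2: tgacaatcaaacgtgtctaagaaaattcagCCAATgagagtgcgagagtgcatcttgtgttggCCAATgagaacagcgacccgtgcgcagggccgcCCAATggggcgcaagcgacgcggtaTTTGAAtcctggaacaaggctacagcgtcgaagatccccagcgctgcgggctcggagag
PLK1: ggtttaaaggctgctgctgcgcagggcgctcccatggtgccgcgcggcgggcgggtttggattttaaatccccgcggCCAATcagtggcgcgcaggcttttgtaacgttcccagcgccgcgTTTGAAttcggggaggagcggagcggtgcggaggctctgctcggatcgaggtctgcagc
KIF11: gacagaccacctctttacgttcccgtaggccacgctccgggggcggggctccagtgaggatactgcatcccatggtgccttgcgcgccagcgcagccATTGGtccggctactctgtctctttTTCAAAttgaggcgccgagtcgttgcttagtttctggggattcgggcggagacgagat
The stretches lie at chr1:163321804-163321983, plus strand for NUF2, chr4:120066819-120066998, minus strand for MAD2L1, chr2:26785906-26786085, plus strand for CENPA, chr15:59104996-59105175, plus strand for CCNB2, chr16:23678739-23678918, plus strand for PLK1 and chr10:92592980-92593159, plus strand for KIF11. The CHR began 29 bases before the start in CCNB2 and in PLK1, 28 before in KIF11 on the opposite strand, and 18 before in CENPA. In NUF2 and MAD2L1 it lay after the start, at positions 17 and 25. CCNB2 held CCAAT boxes at 120, 87 and 54 bases before the start, in the upright orientation. The PLK1 box lay 73 bases before the start, and in KIF11 and CENPA the box was inverted, at 53 and 130 bases before it.

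The genes that mark the lines went against the label in 2 libraries. With the line read from expression, as CCND2 above 10 FPKM for MM.1S and FGFR3 above 10 FPKM for NCI-H929, the replicate 2 CTBP2 library labelled MM.1S expressed NCI-H929 genes and the replicate 2 CTBP2 library labelled NCI-H929 expressed MM.1S genes. Wherever values are listed by line, the line is the one read from expression. For MM.1S the CTBP2 values are given first for the library labelled MM.1S replicate 1 and then for that labelled NCI-H929 replicate 2. For NCI-H929 the CTBP2 library labelled NCI-H929 replicate 1 comes first and that labelled MM.1S replicate 2 second. CTBP2 itself was high in every library that received its vector. It was at 0.213 and 0.201 FPKM with EV against 2145 and 1621 with CTBP2 in MM.1S, and 0.148 and 0.184 with EV against 5884 and 3427 with CTBP2 in NCI-H929. All 4 EV libraries lay below 1 FPKM, and the difference was 11.25 ± 0.39 (SE) on the log2(FPKM + 1) scale (limma, adjusted p = 0.000136 over the 12583 genes). CCND2, a cyclin expressed in MM.1S, was at 94.6 and 115 FPKM with EV against 46.7 and 60.7 with CTBP2 in MM.1S, and 0.0298 and 0.059 with EV against 0.063 and 0.058 with CTBP2 in NCI-H929. FGFR3, the receptor activated by a translocation in NCI-H929, was at 0.044 and 0.057 FPKM with EV against 0.047 and 0.0399 with CTBP2 in MM.1S, and 13.8 and 21.7 with EV against 13.6 and 22.2 with CTBP2 in NCI-H929. Plasma cell markers (SDC1, TNFRSF17, IRF4, PRDM1, XBP1, CD38, SLAMF7) summed to between 1141 and 2449 FPKM. The summed levels of other cells' markers were at most 1.18 FPKM for stroma, 11.9 to 45.2 FPKM for monocytes, nearly all of it CD68 with CD14 at no more than 0.454 FPKM, and 0.566 to 54.6 FPKM for T cells. The T cell sum was CD3E, which reached 53.1 FPKM in the replicate 2 CTBP2 library labelled MM.1S and 16.7 FPKM in NCI-H929 CTBP2 replicate 1, while CD3D and CD3G stayed at or below 0.214 FPKM. The T cell and monocyte sums were highest in CTBP2 libraries, and their part in the results was not tested.

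Every comparison of vectors was therefore fitted by limma with the lines as labelled and with the line read from expression. Fold changes over both lines are the same in these 2 fits, because each line has 2 libraries of each vector in both, and the SE and p differ. The comparisons share their libraries, so they are not independent of each other. In bulk RNA, fewer cells in mitosis and less RNA of these genes per cell cannot be told apart.

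The mitosis genes were lower with CTBP2. The 40 genes together summed to 1930 and 1953 FPKM in the MM.1S EV libraries and 912 and 1181 FPKM in the MM.1S-expressing CTBP2 libraries. In NCI-H929 the sums were 1836 and 1323 FPKM with EV and 1207 and 478 FPKM with CTBP2. The mean sum was 1.85-fold lower with CTBP2 in MM.1S-expressing and 1.88-fold lower in NCI-H929-expressing libraries. All 40 fold changes over both lines were negative, with a median of -0.85 (log2) and a range from -1.56 for MAD2L1 to -0.56 for ECT2, while the median of all genes tested was 0.04. With the lines as labelled, 2 of the 40 genes, UBE2C and NUF2, passed an adjusted p under 0.05 as lower and none as higher, beside 1.81% of all genes called lower and 1.53% called higher. At an unadjusted p under 0.05 there were 23, a threshold at which all genes were not counted. With the line read from expression, 32 of 40 were lower and none higher, beside 16.7% of all genes called lower and 17.4% called higher. The 4 CTBP2 libraries all lay below the 4 EV libraries for 12 of the 40 genes, beside 7.45% of all genes. The sign of all 40 fold changes was also negative under each of 4 other scalings, of which equal totals without immunoglobulin genes and CTBP2 shifted most: the all-gene median went from 0.04 to 0.27 and the median of the 40 genes to -0.57.

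**Figure D1:**
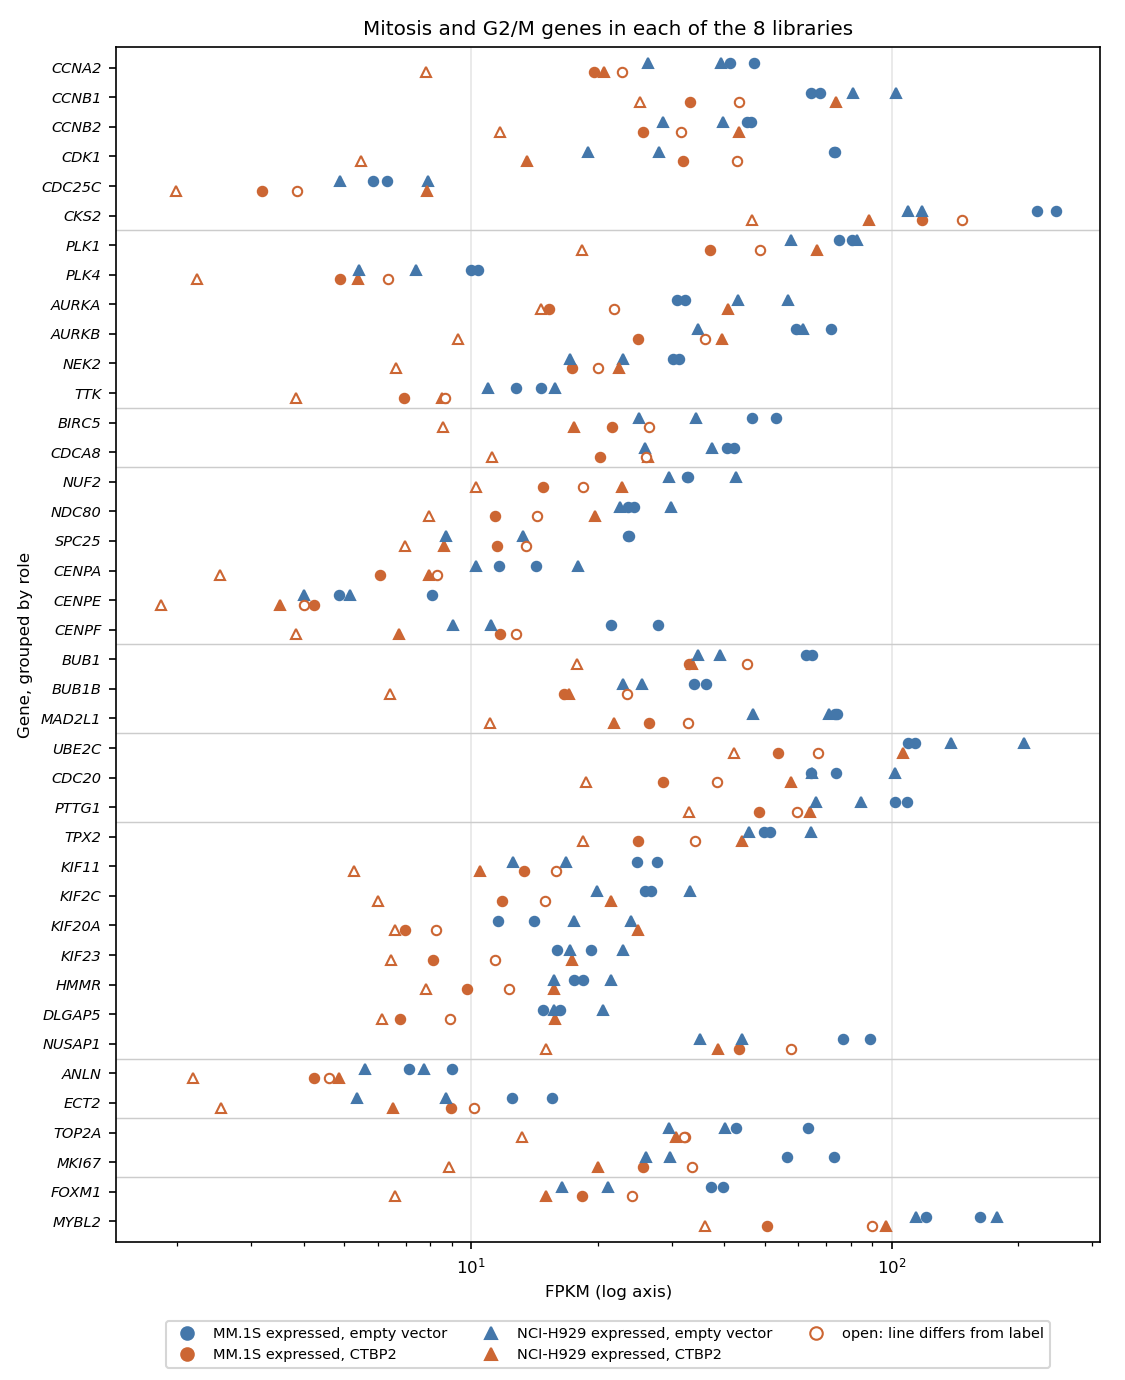
Level of each of the 40 mitosis and G2/M genes in each library, in FPKM on a log axis, with genes grouped by role. Colour gives the vector, shape the line read from expression, and open symbols the 2 libraries whose line differs from the label. The open triangle, the replicate 2 CTBP2 library labelled MM.1S, is the lowest of the 8 libraries for all 40 genes.

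One library set the lower end. The replicate 2 CTBP2 library labelled MM.1S had the lowest value of the 8 for 40 of 40 genes, whereas the highest values were in EV libraries for 39 of 40, the exception being KIF20A, highest in NCI-H929 CTBP2 replicate 1. Of the 2 NCI-H929-expressing CTBP2 libraries, the one labelled NCI-H929 replicate 1 was higher for all 40 genes, by a median of 1.19 (log2), with SPC25 the closest at 0.27 and AURKB the farthest at 1.97. The median of all genes between them was -0.06. The other pairs of one group were closer. NCI-H929 EV replicate 2 was below replicate 1 for all 40 genes, with a median of -0.43, the MM.1S-expressing CTBP2 libraries differed by a median of 0.31, with 38 of 40 genes higher in the one labelled NCI-H929 replicate 2, and the MM.1S EV libraries by a median of -0.04. CTBP2 itself was at 3427 FPKM in the library with the lowest mitosis genes and at 5884 FPKM in the other NCI-H929-expressing CTBP2 library. Without both CTBP2 replicate 2 libraries, in the 6 whose line genes match their labels, 18 of 40 genes were lower, beside 13% of all genes called lower, with a median of -0.65. Leaving out 1 library at a time, the count of 32 lay between 12, without MM.1S CTBP2 replicate 1, and 40, without NCI-H929 CTBP2 replicate 1, beside 9.21% and 15.5% of all genes called lower.

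Cyclins, CDK1 and its activators come first in the sequence of mitosis. CCNA2, the cyclin of S phase and G2, was at 47.1 and 41.2 FPKM with EV against 19.6 and 22.8 with CTBP2 in MM.1S, and 39.3 and 26.3 with EV against 20.7 and 7.82 with CTBP2 in NCI-H929. Its CTBP2 libraries all lay below all 4 EV libraries. CCNA2 fell by 1.14 ± 0.26 (log2, SE) with the line read from expression (limma, adjusted p = 0.0115), and with the lines as labelled the adjusted p was 0.116. CDK1, the kinase that drives entry into mitosis, stood at 73.2 and 72.8 FPKM with EV against 31.8 and 43.01 with CTBP2 in MM.1S, and 28.02 and 19.00 with EV against 13.6 and 5.46 with CTBP2 in NCI-H929. CDK1 also differed between the lines, and its MM.1S-expressing CTBP2 libraries lay above the NCI-H929 EV libraries. Within each line the vectors did not overlap, and CDK1 fell by 1.14 ± 0.25 (adjusted p = 0.0104), whereas the labelled lines gave an SE of 0.71 and an adjusted p of 0.399. CKS2, a small subunit that binds CDK1, had the highest median level of the 40, with 221 and 245 FPKM with EV against 118 and 147 with CTBP2 in MM.1S, and 118 and 109 with EV against 88.2 and 46.5 with CTBP2 in NCI-H929. It fell by 0.82 ± 0.19 (limma, adjusted p = 0.0132), with no overlap within either line.

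Of the B cyclins, 1 of 2 passed. CCNB1, the main partner of CDK1 in mitosis, fell by 0.92 ± 0.28 (limma, adjusted p = 0.0342). CCNB2, its relative at the Golgi, did not pass (adjusted p = 0.166) and was at 46.2 and 45.4 FPKM with EV against 25.6 and 31.6 with CTBP2 in MM.1S, and 39.6 and 28.5 with EV against 43.4 and 11.7 with CTBP2 in NCI-H929. In NCI-H929-expressing libraries the CTBP2 values lay on both sides of the EV values. CDC25C, the phosphatase that activates CDK1, was a low member with 6.31 and 5.85 FPKM with EV against 3.18 and 3.85 with CTBP2 in MM.1S, and 7.90 and 4.87 with EV against 7.86 and 1.98 with CTBP2 in NCI-H929. It overlapped in NCI-H929 and did not pass (limma, adjusted p = 0.154). A difference between the responses of the 2 B cyclins was not tested.

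Among the mitotic kinases, TTK, the checkpoint kinase also called MPS1, was at 14.7 and 12.8 FPKM with EV against 6.94 and 8.69 with CTBP2 in MM.1S, and 15.8 and 10.98 with EV against 8.51 and 3.83 with CTBP2 in NCI-H929. All 4 CTBP2 values lay below the EV values, and TTK fell by 0.91 ± 0.22 (limma, adjusted p = 0.0140). AURKB, the kinase of the chromosomal passenger complex that corrects wrong attachments, was at 59.4 and 71.9 FPKM with EV against 24.9 and 36.1 with CTBP2 in MM.1S, and 61.7 and 34.7 with EV against 39.4 and 9.31 with CTBP2 in NCI-H929. Its 2 NCI-H929-expressing CTBP2 libraries were 4.23-fold apart, and the higher of them lay above 1 of the 2 EV libraries. AURKB fell by 1.16 ± 0.38 over both lines (adjusted p = 0.0410). AURKA, which matures centrosomes and the spindle, was at 30.9 and 32.3 FPKM with EV against 15.3 and 21.8 with CTBP2 in MM.1S, and 56.6 and 43.01 with EV against 40.8 and 14.7 with CTBP2 in NCI-H929. The CTBP2 libraries lay below the EV libraries of their own line, and AURKA fell by 0.87 ± 0.27 (limma, adjusted p = 0.0371). PLK4, the kinase of centriole duplication, fell by 0.73 ± 0.21 (limma, adjusted p = 0.0248). PLK1, which acts from mitotic entry to cytokinesis, had a log2 difference of -0.90 ± 0.33 (limma, adjusted p = 0.0593), and NEK2, a centrosome kinase, one of -0.66 ± 0.29 (limma, adjusted p = 0.102), and neither passed.

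Of the 40, 2 genes encode partners of AURKB in the passenger complex, and both were lower. BIRC5, or survivin, was at 46.7 and 53.1 FPKM with EV against 21.6 and 26.5 with CTBP2 in MM.1S, and 34.2 and 25.05 with EV against 17.5 and 8.58 with CTBP2 in NCI-H929. Within each line the CTBP2 libraries lay below the EV libraries, and BIRC5 fell by 1.10 ± 0.20 (limma, adjusted p = 0.00651). CDCA8, or borealin, fell by 0.82 ± 0.24 (limma, adjusted p = 0.0265). INCENP, the scaffold of the complex and not one of the 40, had a log2 difference of -0.63 ± 0.26 and did not pass (limma, adjusted p = 0.0853).

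All 6 kinetochore and centromere genes were lower with the line read from expression. NUF2, a subunit of the NDC80 complex that grips microtubules, was at 32.5 and 32.9 FPKM with EV against 14.8 and 18.5 with CTBP2 in MM.1S, and 42.7 and 29.5 with EV against 22.8 and 10.2 with CTBP2 in NCI-H929. The highest CTBP2 value, 22.8 FPKM, lay below the lowest EV value, 29.5 FPKM. NUF2 fell by 1.05 on the log2 scale, 2.07-fold, and passed in both fits, with an SE of 0.21 and an adjusted p of 0.0477 with the lines as labelled and an SE of 0.23 and an adjusted p of 0.0101 with the line read from expression (limma). Its partners NDC80 and SPC25 fell by 0.93 ± 0.23 and 0.65 ± 0.16 (limma, adjusted p = 0.0169 and 0.0154). SPC25 had 23.6 and 23.8 FPKM with EV against 11.5 and 13.5 with CTBP2 in MM.1S, and 13.3 and 8.70 with EV against 8.61 and 6.97 with CTBP2 in NCI-H929. Its NCI-H929-expressing values lay close together, and 1 CTBP2 library was only just below the lower EV library.

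CENPA, the histone variant that marks the centromere, was at 14.3 and 11.6 FPKM with EV against 6.09 and 8.29 with CTBP2 in MM.1S, and 18.01 and 10.3 with EV against 7.94 and 2.54 with CTBP2 in NCI-H929. Its 4 CTBP2 libraries lay below its 4 EV libraries, and CENPA fell by 1.08 ± 0.30 (limma, adjusted p = 0.0230). CENPF, a large protein of the outer kinetochore, was at 27.8 and 21.5 FPKM with EV against 11.7 and 12.8 with CTBP2 in MM.1S, and 11.1 and 9.06 with EV against 6.74 and 3.84 with CTBP2 in NCI-H929. Both lines were lower with CTBP2 without overlap, and CENPF fell by 0.90 ± 0.16 (limma, adjusted p = 0.00623). CENPE, a kinesin that moves chromosomes to the spindle equator, was among the lowest members, with 8.06 and 4.86 FPKM with EV against 4.23 and 4.01 with CTBP2 in MM.1S, and 5.15 and 4.01 with EV against 3.51 and 1.83 with CTBP2 in NCI-H929. CENPE fell by 0.57 ± 0.19 (limma, adjusted p = 0.0418). Changes of genes this low are understated on the log2(FPKM + 1) scale.

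MAD2L1 had the most negative fold change of the 40 genes. It encodes MAD2, the checkpoint protein that keeps CDC20 from activating the anaphase-promoting complex, and was at 73.4 and 74.2 FPKM with EV against 26.5 and 32.8 with CTBP2 in MM.1S, and 71.01 and 46.9 with EV against 21.8 and 11.1 with CTBP2 in NCI-H929. Every CTBP2 value lay below every EV value. The log2 fold change was -1.56, or 2.94-fold lower, with an SE of 0.23 and an adjusted p of 0.00371 with the line read from expression and an SE of 0.34 and an adjusted p of 0.0569 with the lines as labelled (limma). The checkpoint kinases BUB1 and BUB1B fell by 0.64 ± 0.19 and 0.96 ± 0.25 (limma, adjusted p = 0.0304 and 0.0191).

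The 3 genes that act on the anaphase-promoting complex and separase were also lower. UBE2C, the ubiquitin-conjugating enzyme of the complex, was at 109 and 114 FPKM with EV against 53.8 and 66.8 with CTBP2 in MM.1S, and 206 and 138 with EV against 107 and 42.2 with CTBP2 in NCI-H929. The highest CTBP2 value and the lowest EV value, 107 and 109 FPKM, came from different lines and nearly met. UBE2C fell by 1.10 on the log2 scale, 2.14-fold, with an SE of 0.21 and an adjusted p of 0.0451 with the lines as labelled and an SE of 0.27 and an adjusted p of 0.0156 with the line read from expression (limma). CDC20, the activator of the complex, fell by 1.15 ± 0.31 (limma, adjusted p = 0.020). PTTG1, or securin, which has near-identical copies elsewhere in the genome that could share its reads, was at 102 and 109 FPKM with EV against 48.5 and 59.6 with CTBP2 in MM.1S, and 84.4 and 65.9 with EV against 63.8 and 33.02 with CTBP2 in NCI-H929. Its groups did not overlap, by a narrow margin in NCI-H929, and PTTG1 fell by 0.82 ± 0.20 (limma, adjusted p = 0.0154).

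Both UBE2C and NUF2 passed the labelled fit by a small margin. Leaving out 1 library at a time, the adjusted p (limma) lay between 0.0497 and 0.185 for UBE2C and between 0.0544 and 0.192 for NUF2, and only without the replicate 2 CTBP2 library labelled NCI-H929 did UBE2C still pass. With the line read from expression 11 genes passed whichever of the 8 libraries was left out: MAD2L1, CENPF, BIRC5, MKI67, NUF2, CDK1, KIF11, CCNA2, CKS2, TTK and UBE2C. Each of these fits called between 9.21% and 17.5% of all genes lower. The share of all genes that passed in all 8 was not counted, so the 11 cannot be set against it.

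Of the 8 spindle motors and assembly factors, 6 fell. KIF11, the kinesin that pushes spindle poles apart, was at 27.7 and 24.8 FPKM with EV against 13.3 and 15.9 with CTBP2 in MM.1S, and 16.8 and 12.6 with EV against 10.5 and 5.28 with CTBP2 in NCI-H929. KIF11 fell by 0.84 ± 0.19 (limma, adjusted p = 0.0114), with no overlap within a line. KIF2C, KIF23, TPX2, DLGAP5 and HMMR, which depolymerise, bundle or organise spindle microtubules, fell by 0.67 (HMMR) to 1.01 (KIF2C) on the log2 scale. KIF20A, the kinesin of the central spindle, did not pass (limma, adjusted p = 0.133) and was at 14.1 and 11.6 FPKM with EV against 6.95 and 8.24 with CTBP2 in MM.1S, and 23.98 and 17.6 with EV against 24.95 and 6.59 with CTBP2 in NCI-H929. NCI-H929 CTBP2 replicate 1 had the highest KIF20A value of the 8 libraries. NUSAP1, which links microtubules to chromosomes, had a log2 difference of -0.69 ± 0.25 (limma, adjusted p = 0.0587) and did not pass.

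The remaining members act in cytokinesis, on chromosomes or as transcription factors. ANLN, the scaffold of the contractile ring, fell by 0.77 ± 0.19 (limma, adjusted p = 0.0161). ECT2, the exchange factor that switches on RhoA there, did not pass (limma, adjusted p = 0.0894) and had the smallest difference of the 40, with 15.6 and 12.5 FPKM with EV against 8.97 and 10.2 with CTBP2 in MM.1S, and 8.70 and 5.35 with EV against 6.51 and 2.54 with CTBP2 in NCI-H929. MKI67, the Ki-67 protein that coats mitotic chromosomes and serves as a proliferation marker, was at 72.9 and 56.3 FPKM with EV against 25.6 and 33.6 with CTBP2 in MM.1S, and 29.7 and 26.1 with EV against 20.1 and 8.88 with CTBP2 in NCI-H929. Within each line its vectors did not overlap, and MKI67 fell by 1.05 ± 0.22 (limma, adjusted p = 0.00953). TOP2A, the topoisomerase that untangles chromatids, had a log2 difference of -0.70 ± 0.24 and missed the threshold (limma, adjusted p = 0.0501). FOXM1 and MYBL2, transcription factors of late cell cycle genes, fell by 0.84 ± 0.22 and 1.15 ± 0.31 (limma, adjusted p = 0.0184 and 0.0223).

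**Figure D2:**
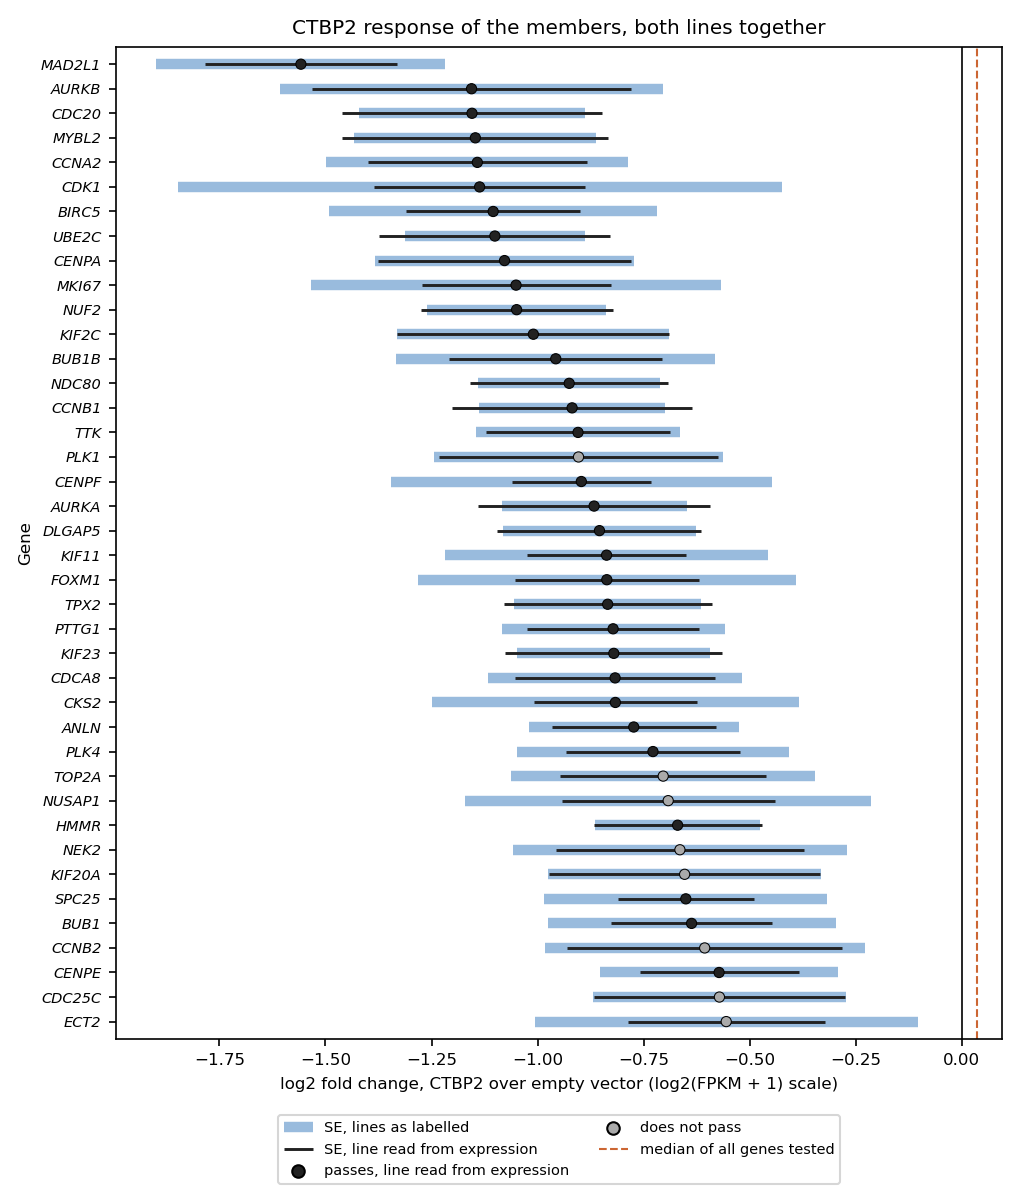
Log2 fold change of each gene, CTBP2 over empty vector in both lines together, on the log2(FPKM + 1) scale. Thick bars give ± SE with the lines as labelled, thin bars ± SE with the line read from expression, dark points pass with the line read from expression (32 of 40), and the dashed line is the median of all 12583 genes. All points lie between -1.56 and -0.56.

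Of the 34 genes with a promoter window, 25 had a CHR match and 9 did not. The median log2 fold change was -0.82 with the match and -0.92 without it. The 9 without it were AURKB, CCNA2, CCNB1, CENPE, KIF20A, KIF2C, MYBL2, NEK2 and PTTG1, with log2 fold changes from -1.16 to -0.57, and those with it ranged from -1.56 to -0.56. A match means TTTGAA or TTCGAA, and no other letters were searched for this element. The difference between these subsets was not tested.

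In each line alone the picture rested on 2 libraries for each vector. In MM.1S-expressing libraries the CTBP2 values lay below the EV values for 40 of 40 genes, beside 31.3% of all genes. None of the 40 passed (limma), beside 1.80% of all genes called lower and 3.67% called higher, and the median was -0.81. An unadjusted p under 0.05 was reached by 19, and all genes were not counted at that threshold. The most negative were MAD2L1 at -1.29 ± 0.31 (limma, adjusted p = 0.0510), MKI67 at -1.10 ± 0.33 and AURKB at -1.10 ± 0.56. The least negative were ECT2 at -0.50, CENPE at -0.51 and CDC25C at -0.65. Without both CTBP2 replicate 2 libraries, MM.1S had 1 CTBP2 library, taken to vary like the other groups, and 26 of 40 genes were lower, beside 5.56% of all genes called lower. The count was 25 without the replicate 2 CTBP2 library labelled MM.1S alone, or without NCI-H929 CTBP2 replicate 1, beside 4.74% and 4.78% of all genes.

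In NCI-H929-expressing libraries 12 of 40 genes fell and none rose, beside 14.6% of all genes called lower and 18.3% called higher. They were MAD2L1, BIRC5, CDK1, CENPF, NUF2, TTK, UBE2C, CCNA2, CENPA, KIF11, BUB1B and MKI67, and the median of the 40 was -0.86. The CTBP2 values lay below the EV values for 26 of 40 genes, beside 31.0% of all genes, and the same 26 were separated in both lines at once, beside 19.9% of all genes. MAD2L1 was again the most negative at -1.82 ± 0.31 (limma, adjusted p = 0.00534), followed by CENPA at -1.38 ± 0.42 and UBE2C at -1.32 ± 0.39. SPC25 at -0.43, CDC25C at -0.49 and CCNB2 at -0.54 were the least negative. Without both CTBP2 replicate 2 libraries the line had 1 CTBP2 library, again taken to vary like the others, and 1 gene passed, beside 6.52% of all genes called lower. It was MAD2L1 at -1.36 ± 0.26 (limma, adjusted p = 0.0225), and the median was -0.30. CCNB2, CDC25C, KIF20A and NEK2 were then at 0.36, 0.29, 0.27 and 0.17, and none of them passed (limma). Without NCI-H929 CTBP2 replicate 1 the count was 39, beside 17.7% of all genes called lower, and without NCI-H929 EV replicate 1 it was 1, beside 2.35%.

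The difference between the 2 responses was tested as an interaction. None of the 40 genes passed (limma), beside 1.26% of all genes in either direction, and none had an unadjusted p under 0.05. The differences, NCI-H929 minus MM.1S, ran from -0.60 for CENPA to 0.45 for SPC25, whose adjusted p, 0.534, was the lowest. Their SE ran from 0.29 for SPC25 to 0.79 for AURKB, and a p above the threshold does not show that the lines responded alike. The median difference was -0.09 and turned positive, to 0.49, without the replicate 2 CTBP2 library labelled MM.1S, to 0.15 without NCI-H929 EV replicate 1 and to 0.09 without the replicate 2 CTBP2 library labelled NCI-H929.

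**Figure D3:**
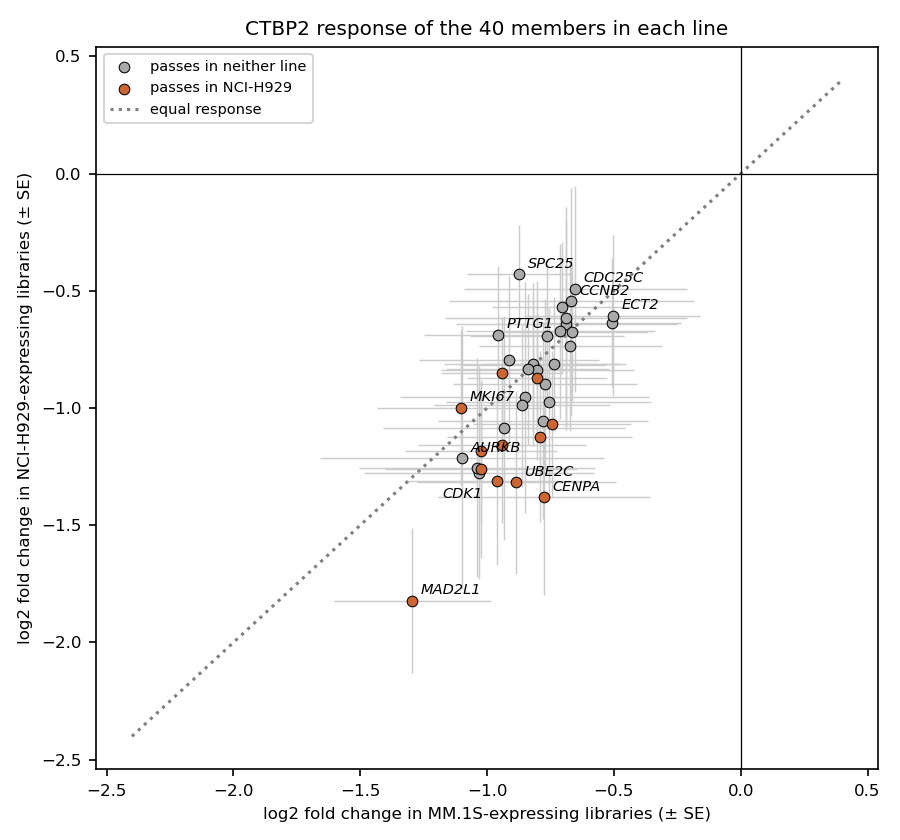
Log2 fold change of each gene in MM.1S-expressing (horizontal) and NCI-H929-expressing (vertical) libraries, with SE in both directions and the line of equal response dotted. All 40 points lie below 0 on both axes, and the 12 orange genes pass in NCI-H929. Each line has 2 libraries for each vector.

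Without CTBP2, a difference between the lines was called for a smaller share of these genes than of all genes, in each direction. Among EV libraries, 9 of 40 genes were lower in NCI-H929 and none higher, beside 28.7% of all genes called lower and 22.1% called higher. CDK1, at 73.2 and 72.8 FPKM in MM.1S against 28.0 and 19.0 FPKM in NCI-H929, was lower by a log2 difference of -1.62 ± 0.36 (limma, adjusted p = 0.00615). CENPF (-1.21), MKI67 (-1.17), SPC25 (-1.07), NUSAP1 (-1.05), CKS2 (-1.03), KIF11 (-0.81), BUB1 (-0.77) and FOXM1 were lower as well. KIF20A at 0.64, AURKA at 0.63 and UBE2C at 0.59 were the most positive and did not pass (limma, adjusted p = 0.292, 0.226 and 0.236). NUF2 and MYBL2 did not pass either, with log2 differences of 0.12 ± 0.33 and 0.03 ± 0.47. Without both CTBP2 replicate 2 libraries the count of 9 was 14, beside 30.9% of all genes called lower. It was 15 with 1 NCI-H929-expressing CTBP2 library left out, beside 31.7%, and 6 with 1 MM.1S-expressing CTBP2 library left out, beside 27.1%. It was lower still where 1 EV library was left out.

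Other genes of cell division, in lists that overlap the 40 in no member, were counted with the line read from expression, in which 16.7% of all genes were called lower and 17.4% higher. Of 35 other kinetochore and centromere genes 25 fell and none rose, with a median of -0.80. CENPQ, a subunit of the inner kinetochore, fell by 0.92 ± 0.14 (limma, adjusted p = 0.00394), and SKA3, which couples kinetochores to microtubules, by 0.99 ± 0.16 (limma, adjusted p = 0.00465). Of 37 other motors, spindle and cytokinesis genes 20 fell and none rose, with a median of -0.69. CENPJ, a centriole protein, fell by 0.88 ± 0.14 (limma, adjusted p = 0.00471). Of 16 genes of the mitotic entry switch 10 fell and none rose, with a median of -0.59. CDC25A, a phosphatase that activates CDKs, fell by 1.45 ± 0.23 (limma, adjusted p = 0.00456), and the kinase CHEK1, which restrains entry after DNA damage, by 1.08 ± 0.22 (limma, adjusted p = 0.00801).

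Of 19 condensin, cohesin and separase genes 11 fell and none rose, with a median of -0.57. ESCO2, which acetylates cohesin, fell by 1.25 ± 0.14 (limma, adjusted p = 0.00212), and the condensin subunit SMC2 by 0.64 ± 0.13 (limma, adjusted p = 0.00749). In the list of the anaphase-promoting complex 5 of 18 fell and none rose, beside those 16.7% and 17.4% of all genes, with a median of -0.22. FBXO5, or EMI1, an inhibitor of the complex, fell by 1.07 ± 0.14 (limma, adjusted p = 0.00277), and UBE2S, its chain-extending enzyme, by 1.31 ± 0.26 (limma, adjusted p = 0.00825). Among 38 DNA replication genes 37 fell and none rose, with a median of -1.02. DSCC1, part of the loader of the PCNA clamp, fell by 1.75 ± 0.21 (limma, adjusted p = 0.00238). It was at 11.96 and 9.84 FPKM with EV against 2.02 and 3.31 with CTBP2 in MM.1S, and 15.4 and 12.3 with EV against 4.89 and 2.07 with CTBP2 in NCI-H929. With the lines as labelled the lists had 0 to 1 lower genes, except DNA replication with 6 of 38.

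The 23 regulators of the DREAM complex and of RB and E2F factors had 8 lower and 2 higher genes, beside 16.7% and 17.4% of all genes, and a median of -0.18. E2F1, an activator of the G1/S genes, fell by 1.23 ± 0.23 and E2F8 by 1.05 ± 0.20 (limma, adjusted p = 0.00667 and 0.00697). LIN9, a core subunit of DREAM and of the complexes with MYBL2 and FOXM1, fell by 0.88 ± 0.16 (limma, adjusted p = 0.00623). The 2 higher genes were RBL2, the p130 pocket protein of DREAM, and the kinase DYRK1A, at 0.96 ± 0.27 and 0.52 ± 0.13 (limma, adjusted p = 0.0251 and 0.0163). Both were named after their values were seen, and with the lines as labelled neither passed (limma, adjusted p = 0.0526 and 0.321). Other DREAM genes, among them RBL1 at -0.57, LIN54 at -0.37, RBBP4 at -0.14 and LIN52 at -0.13, were not called higher. Of the 23 fold changes in the list, 15 were negative and 8 positive. A difference between any of these lists and the 40 genes was not tested.

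**Figure D4:**
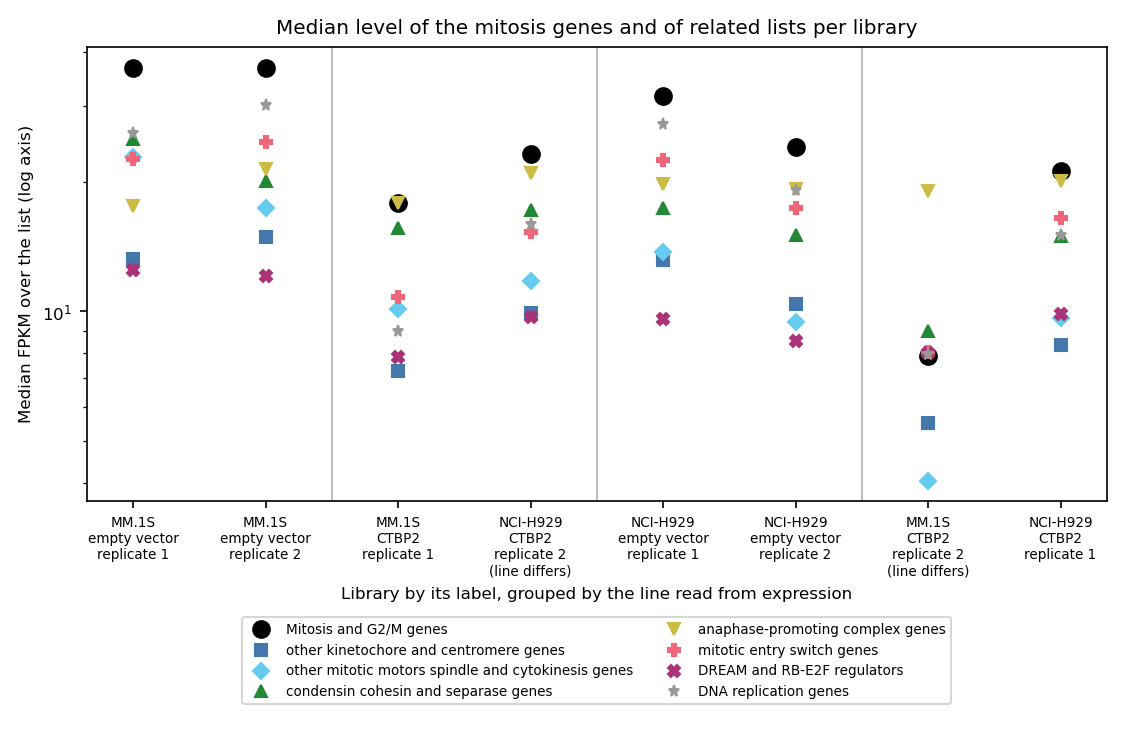
Median FPKM, on a log axis, of the 40 mitosis and G2/M genes and of 7 related lists in each library, with libraries grouped by the line read from expression. The mitosis genes stand at 36.7 FPKM in both MM.1S EV libraries, at 17.9 and 23.1 FPKM in the MM.1S-expressing CTBP2 libraries, and at 7.89 FPKM in the replicate 2 CTBP2 library labelled MM.1S. The anaphase-promoting complex genes stay between 17.6 and 21.4 FPKM.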

How the data were processed

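RNA-seq libraries were measured in 4 groups of 2. The FPKM values were deposited by the authors in 1 table of 25906 genes. Per the submitters' processing notes, DESeq2 2.11.40.2, HTSeq 0.9.1, STAR 2.6.0b-1, Trimmomatic 0.36.5 and FastQC 0.11.7 were used with GRCh37 (hg19), and the tool that made the FPKM values is not given in the sources used here. The deposited FPKM values are not counts. Steps in low values gave estimates of 16000000 to 21200000 fragments per library, at which 50.6 to 58.9% of values were whole within 0.1, so no counts were rebuilt and no counting intervals are given.

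Values were taken as log2(FPKM + 1) for genes with 1 FPKM or more in 2 or more libraries (12583) and fitted with limma 3.58.1 in R 4.3.3, with a mean-variance trend and Benjamini-Hochberg adjustment over all of them, in 6 comparisons. Called means an adjusted p under 0.05. Vector groups follow the labels. The comparison over both lines was fitted with the lines as labelled and with the line read from CCND2 and FGFR3. Comparisons within and between lines use the line read from expression, with the labelled line as an alternative. The scale understates changes of low genes. Tested on simulated data for the fit over both lines with the line read from expression (12583 genes), limma recovered 77% of 100 genes changed by 1 (log2) and 100% of 100 changed by 2, with 10 false calls. The median of the 40 genes, -0.85, is smaller in size than either, and recovery of such changes is not covered.

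The members, lists, tests and rule for named genes were chosen with earlier results of these data known. All 40 members may be named. Values in every library are given for the members called as labelled, the 12 with the smallest adjusted p with the line read from expression, and the 3 at each end of the response in each line and of the baseline difference. From each list up to 4 called genes with the smallest p may be named. Promoter sequences are from RefSeq (GRCh38.p14), a build other than that of the values. Alternatives were the pseudocount, the filter, 3 other scalings, the trend, the replicate block, the line assignment, 6 libraries and each library left out, and equal totals also without small RNA genes, chosen after seeing the data.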

Additional observations from a re-analysis of the deposited data

How the results depend on the processing

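With the lines as labelled, the count of members called lower, 2, became 0 with no filter, beside 0.646% of all genes called lower. It was 0 with quantile normalization, beside 1.30%, and 0 with equal totals without immunoglobulin genes and CTBP2, beside 0.453%. The same totals also without small RNA genes (chosen after seeing the data) gave 0, beside 0.0636%. It was 1 without the variance trend, beside 1.56%, 18 with 6 libraries, beside 13.0%, and 0 to 2 leaving out 1 library, beside 0 to 3.61%. Nothing in the labels pairs libraries by replicate number. Deviations from the labelled group means had a correlation of 0.03 between same-numbered EV libraries of the 2 lines. Correlations with a CTBP2 group ran from 0.01 to 0.11, and -0.89 between the CTBP2 groups. They cannot show pairing, because the libraries of each labelled CTBP2 group expressed different lines. With the replicate block 0 members were called lower as labelled, and 0 of all genes. With the line read from expression, the 32 became 16 with no filter, beside 7.07% of all genes called lower, and 18 with equal totals, beside 6.90%. It became 18 with 6 libraries, beside 13.0%. Leaving out 1, it was 12 without MM.1S CTBP2 replicate 1, beside 9.21%, and at most 40, beside 15.5%. It was 13 without NCI-H929 EV replicate 1, beside 9.60%, 18 without MM.1S EV replicate 2, beside 10.8%, and 21 without MM.1S EV replicate 1, beside 16.4%.

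In MM.1S, the 0 became 1 with equal totals in either form, 26 with 6 libraries, and 0 to 25 leaving out 1, with 25 without the replicate 2 CTBP2 library labelled MM.1S or without NCI-H929 CTBP2 replicate 1. In NCI-H929, the 12 became 1 with no filter, 4 with quantile normalization, 3 with equal totals, 7 also without small RNA genes, 1 with 6 libraries, 0 with the line as labelled, and 1 to 39 leaving out 1: 39 without NCI-H929 CTBP2 replicate 1, 1 without the replicate 2 CTBP2 library labelled MM.1S or NCI-H929 EV replicate 1, and 4 to 6 without any other. At baseline, the 9 lower in NCI-H929 became 4 with no filter, 5 with median-of-ratios rescaling, 5 with quantile normalization, 14 with 6 libraries, 18 with equal totals also without small RNA genes, and 3 to 15 leaving out 1. The 3 came without either NCI-H929 EV library or MM.1S EV replicate 1, 4 without MM.1S EV replicate 2, and 15 without the replicate 2 CTBP2 library labelled MM.1S or NCI-H929 CTBP2 replicate 1. The 0 higher became 2 with 6 libraries and 0 to 3 leaving out 1.

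Beside the NCI-H929 counts, the all-gene share called lower was 6.37% with no filter and 14.5% with quantile normalization, above the members' share. It was 5.05% with equal totals and 5.04% also without small RNA genes, below their share. In MM.1S these were 0.771% and 0.461%. At baseline, it was 17.0% with no filter, 24.9% with median-of-ratios rescaling and 25.2% with quantile normalization, above theirs. It was 34.5%, below theirs, with equal totals also without small RNA genes. No member's sign over both lines turned under any of the settings. In NCI-H929, 4 members, CCNB2, CDC25C, KIF20A and NEK2, turned to 0.36, 0.29, 0.27 and 0.17 without the replicate 2 CTBP2 library labelled MM.1S and with 6 libraries. With the line as labelled 9 turned, among them CCNB2 and SPC25 to 0.13 and 0.0062, and the highest was NUSAP1 at 0.26. In MM.1S no member turned. Without NCI-H929 CTBP2 replicate 1, CCNB2 was at -1.45, CDC25C at -1.28 and the median difference described next at -0.71. The median difference between the lines' responses, -0.09, turned to 0.10 with equal totals, 0.060 also without small RNA genes, 0.49 without the replicate 2 CTBP2 library labelled MM.1S, 0.15 without NCI-H929 EV replicate 1, 0.09 without the replicate 2 CTBP2 library labelled NCI-H929, 0.69 with 6 libraries and 1.13 with the line as labelled. With 1 library left out, the count over both lines with the line read from expression went both ways, from 32 to 12 and to 40. Fewer libraries leave fewer degrees of freedom, and no filter adds genes to the adjustment. The cause of the changes in count and sign was not tested. Depth limits the genes near 1 FPKM, and no member lies there in every library.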
